A study of Homo sapiens with 9 samples.

Results

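The 44 mitosis and kinetochore genes examined here were followed in RNA of extracellular vesicles released by H9 human embryonic stem cells (hESCs), an established line. They were chosen by name, and every probe set that the array annotation pairs with one of them was taken. All 44 were on the arrays, with 84 probe sets among 54675, and they were 44 of 19775 genes. They comprised 8 genes of entry into mitosis, 6 Aurora kinase and passenger genes, 7 kinetochore genes, 5 spindle checkpoint genes, 4 genes of the anaphase-promoting complex and sister separation, 9 motor and spindle genes, and 5 genes of chromosome shape.

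RNA was profiled on 9 Affymetrix HG-U133 Plus 2.0 arrays, with 3 biological samples of each vesicle type. Microvesicles (MVs), which bud from the cell surface, were pelleted at 16500 g for 1 hour from medium cleared at 300 g and 2800 g, and exosomes (EXOs), which are released from endosomes inside the cell, were pelleted from what remained at 120000 g for 2 hours. Non-fractionated vesicles (hESEVs) were pelleted directly at 120000 g after the 300 g spin, according to the labels. All groups came from untreated H9 cells grown without serum or feeder cells, with medium collected daily. The same amount of total RNA was taken for each sample, then amplified and labelled, and every array was scaled to the same target. A signal thus stands for a scaled share of the amplified RNA and not for an amount in the pellet. A difference in how many vesicles carry an mRNA cannot be told apart from a difference in copies per vesicle.

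Mitosis is driven by cyclin B and CDK1, which are switched on at the end of G2 and condense the chromosomes and build the spindle. Kinetochores then tie each chromosome to spindle fibres, and the spindle checkpoint keeps the anaphase-promoting complex (APC/C) inactive until all chromosomes are attached. The mRNAs for many of these proteins peak in G2 and M phase, and pluripotent stem cells divide fast, with a short G1 phase.

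The signal on each array was the MAS5 intensity scaled to a target of 500. The array medians lay between 358 and 365 in MVs, between 422 and 430 in EXOs, and between 415 and 421 in hESEVs, and 3.39% to 5.50% of the probe sets on an array were under a floor of 32, to which they were raised. As a background level, the 90th percentile of the mean signals of 76 tissue-restricted genes was taken, which was 1051 in MVs, 1336 in EXOs and 1214 in hESEVs. Of 18 pluripotency genes measured, 12 were above that level in MVs, 3 in EXOs and 9 in hESEVs, while of 27 genes of differentiated derivatives 1, 0 and 0 were above it in the same order. Several other RNAs differed between the pellets along with the mitosis genes, and their part in the results was not tested. The summed signal of 7 mitochondrially encoded RNAs lay between 471798 and 499695 in MVs, 25549 and 27294 in EXOs, and 523700 and 592303 in hESEVs, and all 7 were above background in MVs, 6 in EXOs and 7 in hESEVs. That of 11 housekeeping genes lay between 182986 and 219109 in MVs, 28153 and 29555 in EXOs, and 60452 and 69780 in hESEVs, with 10, 4 and 6 of them above background. That of 6 nuclear-retained RNAs lay between 14650 and 15530 in MVs, 4131 and 4331 in EXOs, and 4415 and 5005 in hESEVs, with 2, 1 and 2 above background.

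Mitosis mRNAs were higher in MVs than in EXOs for 23 of the 44 genes, and for none were they lower. A gene was called when the 2 pellets differed by 2-fold or more and limma gave an adjusted p (Benjamini-Hochberg, over all genes) under 0.05. The share of 52.3% compares with 11.6% of all 19775 genes called higher in MVs and 2.77% called lower. After quantile normalization the split over all genes was 1996 higher and 1150 lower, in place of 2293 and 548, and 19 mitosis genes were called higher. The log2 fold change, MVs minus EXOs, was above 0 for 39 of the 44 genes, with a median of 1.19 against a median of -0.23 over all genes, which was -0.20 after quantile normalization. In 32 of the 44 the MVs and EXOs arrays did not overlap, MVs being the higher ones, which held for 18.8% of all genes. Because these genes and the lists used below were chosen with earlier results of these arrays known, the counts describe the arrays and are no independent support for a direction.

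**Figure D1:**
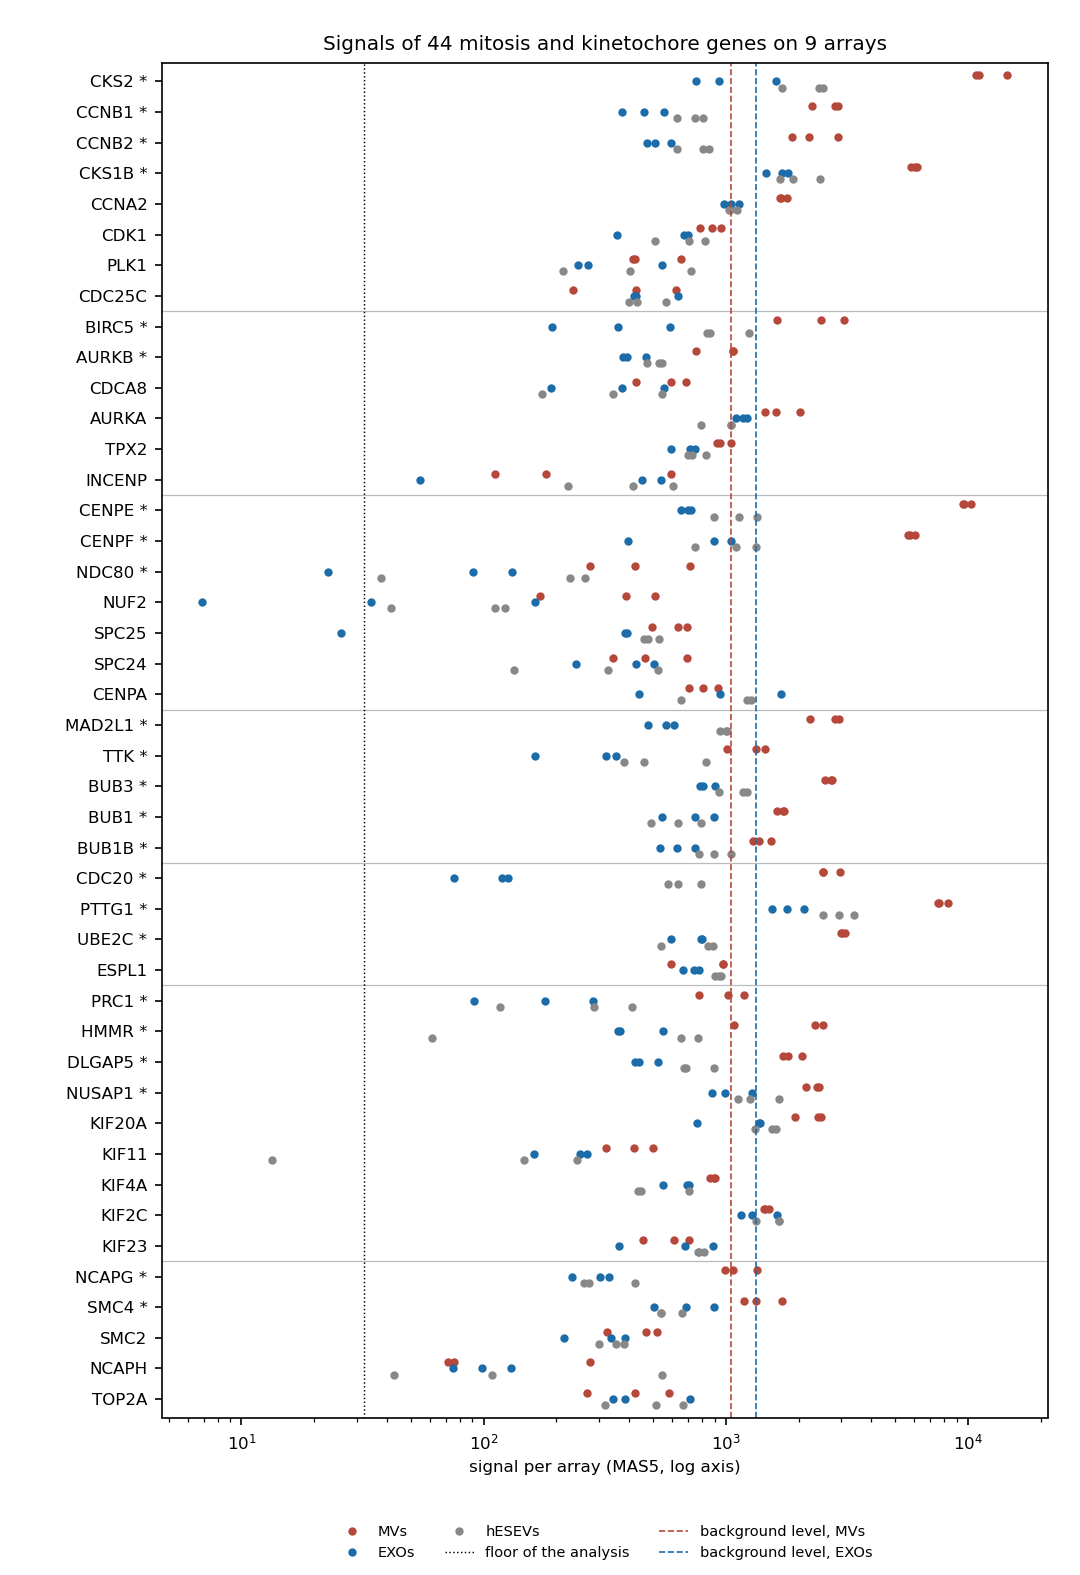
Signal of each of the 44 genes on every array (log axis), with a row per gene, MVs above EXOs and hESEVs, and the genes grouped by role (grey lines). A star marks the 23 genes called higher in MVs than in EXOs, the dotted line is the floor of 32, and the dashed lines are the background levels of 1051 in MVs and 1336 in EXOs. The MVs points of 24 genes have a mean to the right of the MVs line, whereas the EXOs means of 3 genes lie to the right of the EXOs line.

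The difference was largest for CDC20, CENPE, CKS2 and CENPF, which are described below with their roles. Genes of the G2 and M phases are known to share promoter elements, a CCAAT box bound by NF-Y and a cell cycle homology region (CHR) bound by MuvB complexes, close to their start sites. The RefSeq promoter windows (GRCh38.p14, 250 bases before to 50 bases after the start) were therefore searched on both strands for CCAAT, which reads ATTGG on the other strand, and for the CHR-type letters TTTGAA, which read TTCAAA on the other strand, or TTTAAA, which reads the same on both. The windows of the 4 genes with the largest difference are shown, together with that of KIF2C, a gene not called whose mean was above the background level in MVs and just above it in EXOs, and capitals mark every match:
CDC20, chr1:43358731-43359030 (plus strand): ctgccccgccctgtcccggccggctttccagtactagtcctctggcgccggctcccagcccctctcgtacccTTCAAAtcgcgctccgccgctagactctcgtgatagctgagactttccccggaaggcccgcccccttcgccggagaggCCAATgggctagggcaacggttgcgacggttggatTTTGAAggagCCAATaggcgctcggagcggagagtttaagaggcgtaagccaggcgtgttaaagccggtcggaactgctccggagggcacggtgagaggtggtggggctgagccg
CENPE, chr4:103198294-103198593 (minus strand): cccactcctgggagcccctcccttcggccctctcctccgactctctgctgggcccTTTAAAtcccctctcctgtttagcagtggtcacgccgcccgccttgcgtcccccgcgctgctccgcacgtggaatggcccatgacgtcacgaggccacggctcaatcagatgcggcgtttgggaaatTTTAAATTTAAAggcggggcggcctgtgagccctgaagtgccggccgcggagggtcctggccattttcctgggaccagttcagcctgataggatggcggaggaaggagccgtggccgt
CKS2, chr9:89310945-89311244 (plus strand): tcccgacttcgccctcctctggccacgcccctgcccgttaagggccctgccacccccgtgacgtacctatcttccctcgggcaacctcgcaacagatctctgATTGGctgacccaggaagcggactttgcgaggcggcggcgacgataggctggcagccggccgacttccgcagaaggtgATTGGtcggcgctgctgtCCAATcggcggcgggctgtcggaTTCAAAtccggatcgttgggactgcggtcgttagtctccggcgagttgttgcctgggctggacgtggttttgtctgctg
CENPF, chr1:214602945-214603244 (plus strand): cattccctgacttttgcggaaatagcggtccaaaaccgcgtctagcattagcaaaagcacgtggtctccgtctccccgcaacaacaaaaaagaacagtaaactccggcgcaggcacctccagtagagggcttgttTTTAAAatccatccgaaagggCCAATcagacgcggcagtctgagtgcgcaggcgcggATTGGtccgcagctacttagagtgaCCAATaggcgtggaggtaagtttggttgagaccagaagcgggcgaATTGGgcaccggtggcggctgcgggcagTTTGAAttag
KIF2C, chr1:44739587-44739886 (plus strand): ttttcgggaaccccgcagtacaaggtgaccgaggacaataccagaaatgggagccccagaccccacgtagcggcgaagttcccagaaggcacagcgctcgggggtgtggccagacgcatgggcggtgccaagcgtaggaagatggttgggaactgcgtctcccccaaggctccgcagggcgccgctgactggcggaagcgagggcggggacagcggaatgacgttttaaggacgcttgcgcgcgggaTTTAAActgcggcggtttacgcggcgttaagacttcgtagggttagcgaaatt

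CDC20 had 2 CCAAT and 2 CHR-type matches, CKS2 had 3 and 1, CENPF had 4 and 2, CENPE had none and 3, of which a pair lies side by side, and KIF2C had none and 1. Windows were given for 38 of the 44 genes, 6 of them with more than 1 window. A window with both elements was found for 26 of the 38 genes (68.4%), against 9.91% of the 15384 genes on the arrays that have a window. Counted by window, CCAAT was found in 73.9% of 46 windows of the mitosis genes and in 34.5% of all 21490 windows, and a CHR-type match in 80.4% and 19.8%. The matches did not set apart the genes called higher in MVs. Both elements were in a window of 12 of 19 called genes (63.2%) and of 14 of 19 genes not called (73.7%). A match describes letters in a window and is not a bound site.

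Among genes of entry into mitosis, 4 of 8 were higher in MVs, with a median log2 fold change of 1.28. CKS2, a small subunit that docks CDK1 onto its substrates, had signals of 11079, 14560.5 and 10774 in MVs, against 935, 755 and 1619 in EXOs. The fitted difference was 11.5-fold (log2 fold change 3.52 ± 0.26 SE, adjusted p = 2.88e-05). Its paralog CKS1B, which also helps to degrade the CDK inhibitor p27, had 6165, 6069.7 and 5801 in MVs, against 1810.2, 1473 and 1710.4 in EXOs (3.62-fold, 1.86 ± 0.11, adjusted p = 5.76e-06). The lowest MVs array was several-fold above the highest EXOs array for both, although CKS1B lost its call after quantile normalization (log2 fold change 0.65). CCNB1, the main mitotic cyclin, had 2276, 2919 and 2826 in MVs, against 459, 374 and 555 in EXOs (5.81-fold, 2.54 ± 0.20, adjusted p = 3.39e-05). CCNB2, the cyclin B of the Golgi, had 1877, 2897 and 2210.5 in MVs, against 474, 508 and 596 in EXOs (4.37-fold, 2.13 ± 0.20, adjusted p = 0.00012).

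The kinase partner, the other cyclin and the activators of this step were not called. CCNA2, the cyclin A of S and G2 phase, had 1676, 1685 and 1790.3 in MVs, against 1053, 1129.5 and 984 in EXOs, without overlap, and with an adjusted p of 0.00591 its difference of 1.63-fold stayed under 2-fold. CDK1, the kinase that cyclin B activates, had 882, 786 and 955 in MVs, against 675, 701 and 355 in EXOs (log2 fold change 0.66 ± 0.30, adjusted p = 0.163) on the probe set that stands for it here, and another of its probe sets gave a different result, as described below. PLK1, the kinase that promotes entry and spindle assembly, had 414, 652 and 424 in MVs, against 271, 245 and 545 in EXOs (0.55 ± 0.44, adjusted p = 0.407). CDC25C, the phosphatase that activates CDK1, had 624, 234 and 426 in MVs, against 428, 633 and 417 in EXOs (-0.29 ± 0.44, adjusted p = 0.676). The arrays of PLK1 and CDC25C overlapped, and all of them lay under the background level of their group.

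Of the 6 Aurora kinase and passenger genes 2 were higher in MVs, with a median of 0.62. BIRC5 (survivin), the passenger subunit that brings Aurora B to the centromere, had 1631, 3072 and 2468 in MVs, against 192, 589 and 359.7 in EXOs (6.72-fold, 2.75 ± 0.41, adjusted p = 0.00198). AURKB, the kinase of the passenger complex, which corrects faulty attachments, had 1069, 1067 and 751 in MVs, against 468, 375 and 392 in EXOs (2.32-fold, 1.21 ± 0.26, adjusted p = 0.0124). No array of the one pellet reached those of the other for either gene. AURKB was no longer called without MVs replicate 1 (adjusted p = 0.0621) or without MVs replicate 2 (adjusted p = 0.0617). AURKA, the kinase of the spindle poles, had 1451, 2033 and 1607 in MVs, against 1226, 1176 and 1101 in EXOs (0.53 ± 0.16, adjusted p = 0.0503), and was above background in MVs. TPX2, which activates Aurora A on microtubules, had 921, 1056 and 946 in MVs, against 712, 593 and 746 in EXOs (0.52 ± 0.19, adjusted p = 0.0943). The arrays of AURKA and TPX2 did not overlap, yet neither difference passed the test. CDCA8 (borealin), the passenger subunit next to survivin, had 685, 426 and 596 in MVs, against 556, 373 and 189.9 in EXOs (0.71 ± 0.46, adjusted p = 0.308). INCENP, the scaffold of the complex, was the least precise of all 44, with 112, 180.4 and 592 in MVs, against 54.9, 539 and 451 in EXOs (-0.05 ± 1.00, adjusted p = 0.977).

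At the kinetochore 3 of 7 genes were higher in MVs and the median was 2.52, which is the value of NUF2, a dim gene that was not called. CENPE, the kinesin that carries chromosomes to the spindle equator, had the smallest standard error of the 44, with 9578, 10258 and 9677 in MVs, against 651, 701 and 719.6 in EXOs (14.2-fold, 3.83 ± 0.10, adjusted p = 1.3e-07). CENPF, a large coiled-coil protein of the outer kinetochore, had 5665, 6072 and 5743 in MVs, against 897, 397 and 1047 in EXOs (8.09-fold, 3.02 ± 0.32, adjusted p = 0.000265). Both stood well above background in MVs and under it in EXOs. NDC80, the subunit that grips the microtubule, was called at low signals of 424, 276 and 709 in MVs, against 22.7, 132 and 90.2 in EXOs (6.02-fold, 2.59 ± 0.69, adjusted p = 0.0329). That call held without EXOs replicate 2, and was lost without each of the other 5 arrays in turn, at adjusted p between 0.0504 and 0.0998.

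The partners of NDC80 in the same complex were as dim. NUF2 had 389, 171 and 512 in MVs, against 163, 34.3 and 6.89 in EXOs, without overlap (2.52 ± 0.79, adjusted p = 0.0563). SPC25 had 497, 691 and 635 in MVs, against 25.8, 390.3 and 385 in EXOs (1.83 ± 0.93, adjusted p = 0.201), and the size of that difference rested on the first EXOs array, without which it was 0.63. SPC24 had 343, 463 and 692 in MVs, against 425, 242 and 507 in EXOs (0.36 ± 0.44, adjusted p = 0.59). None of these 3 partners passed the test. NUF2 did without EXOs replicate 1 (limma, adjusted p = 0.0178), with arrays centred on their medians (adjusted p = 0.0456) and with all 9 arrays in the fit (adjusted p = 0.0364). CENPA, the histone H3 variant that marks the centromere, had 707, 927 and 803 in MVs, against 1692, 947 and 439 in EXOs, so that the EXOs arrays lay on either side of the MVs arrays (-0.14 ± 0.44, adjusted p = 0.847).

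Of the role groups drawn here, only the spindle checkpoint had every member called, 5 of 5, with a median of 1.68. Other checkpoint genes were placed among the further mitosis genes described below. Of these ZWILCH was called (1.78), while MAD1L1 (1.98), ZW10 (0.03), KNTC1 (-0.37) and KNL1 (-0.54) were not. MAD2L1 (MAD2), which binds CDC20 at unattached kinetochores, had 2837, 2219.7 and 2929 in MVs, against 476, 614 and 568 in EXOs (4.81-fold, 2.27 ± 0.17, adjusted p = 3.36e-05). TTK (MPS1), the kinase that starts the checkpoint signal, had 1455, 1013 and 1329 in MVs, against 321, 354 and 164 in EXOs (4.72-fold, 2.24 ± 0.36, adjusted p = 0.00288). BUB3, the adaptor that recruits the BUB kinases, had 2561, 2746 and 2713 in MVs, against 809.5, 905 and 784 in EXOs (3.21-fold, 1.68 ± 0.12, adjusted p = 2.57e-05). For each of the 3 the MVs arrays lay clear above the EXOs arrays. BUB1, a kinase that marks the centromere for shugoshin, had 1732, 1738 and 1630.4 in MVs, against 893, 746 and 548 in EXOs (2.38-fold, 1.25 ± 0.20, adjusted p = 0.00293). BUB1B (BUBR1), part of the complex that blocks the APC/C, had 1299.9, 1540.0 and 1374 in MVs, against 750.0, 629 and 537 in EXOs (2.21-fold, 1.15 ± 0.19, adjusted p = 0.00336). The calls of all 5 held without each array in turn and after quantile normalization, but 3 of them depended on the probe set. With probe sets averaged, BUB1 was at -0.29, BUB3 at 0.93 and MAD2L1 at 0.86, and without shared probe sets BUB3 was at 0.03 and MAD2L1 at -0.17, none of them called. Shared probe sets are those whose names end in _s_at, _x_at or _a_at.

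Downstream of the checkpoint, 3 of 4 genes of the APC/C and sister separation were higher in MVs, with a median of 2.09. CDC20, the APC/C activator that the checkpoint holds back, had 2523, 2961 and 2514 in MVs, against 119, 75.4 and 126 in EXOs. At 25.5-fold (4.67 ± 0.31, adjusted p = 1.38e-05) it was the largest of the 44 differences, and the EXOs arrays were far under background. UBE2C, the ubiquitin-conjugating enzyme of the APC/C, had 3112, 2980.5 and 3017 in MVs, against 596, 796 and 791 in EXOs (4.21-fold, 2.07 ± 0.15, adjusted p = 2.33e-05). PTTG1 (securin), the inhibitor of separase that the APC/C destroys, had 7601, 8291 and 7558 in MVs, against 1558, 1784 and 2103 in EXOs (4.33-fold, 2.12 ± 0.12, adjusted p = 6.42e-06). Securin was thus above background in both pellets. Its difference shrank to 0.71 after quantile normalization, under 2-fold, and its single probe set carries the suffix for probes that can match several similar sequences, so close copies of the gene may share its signal. ESPL1 (separase), the protease that cuts cohesin, had 595, 975 and 974 in MVs, against 777, 668 and 739 in EXOs, which overlapped (0.19 ± 0.25, adjusted p = 0.624).

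**Figure D2:**
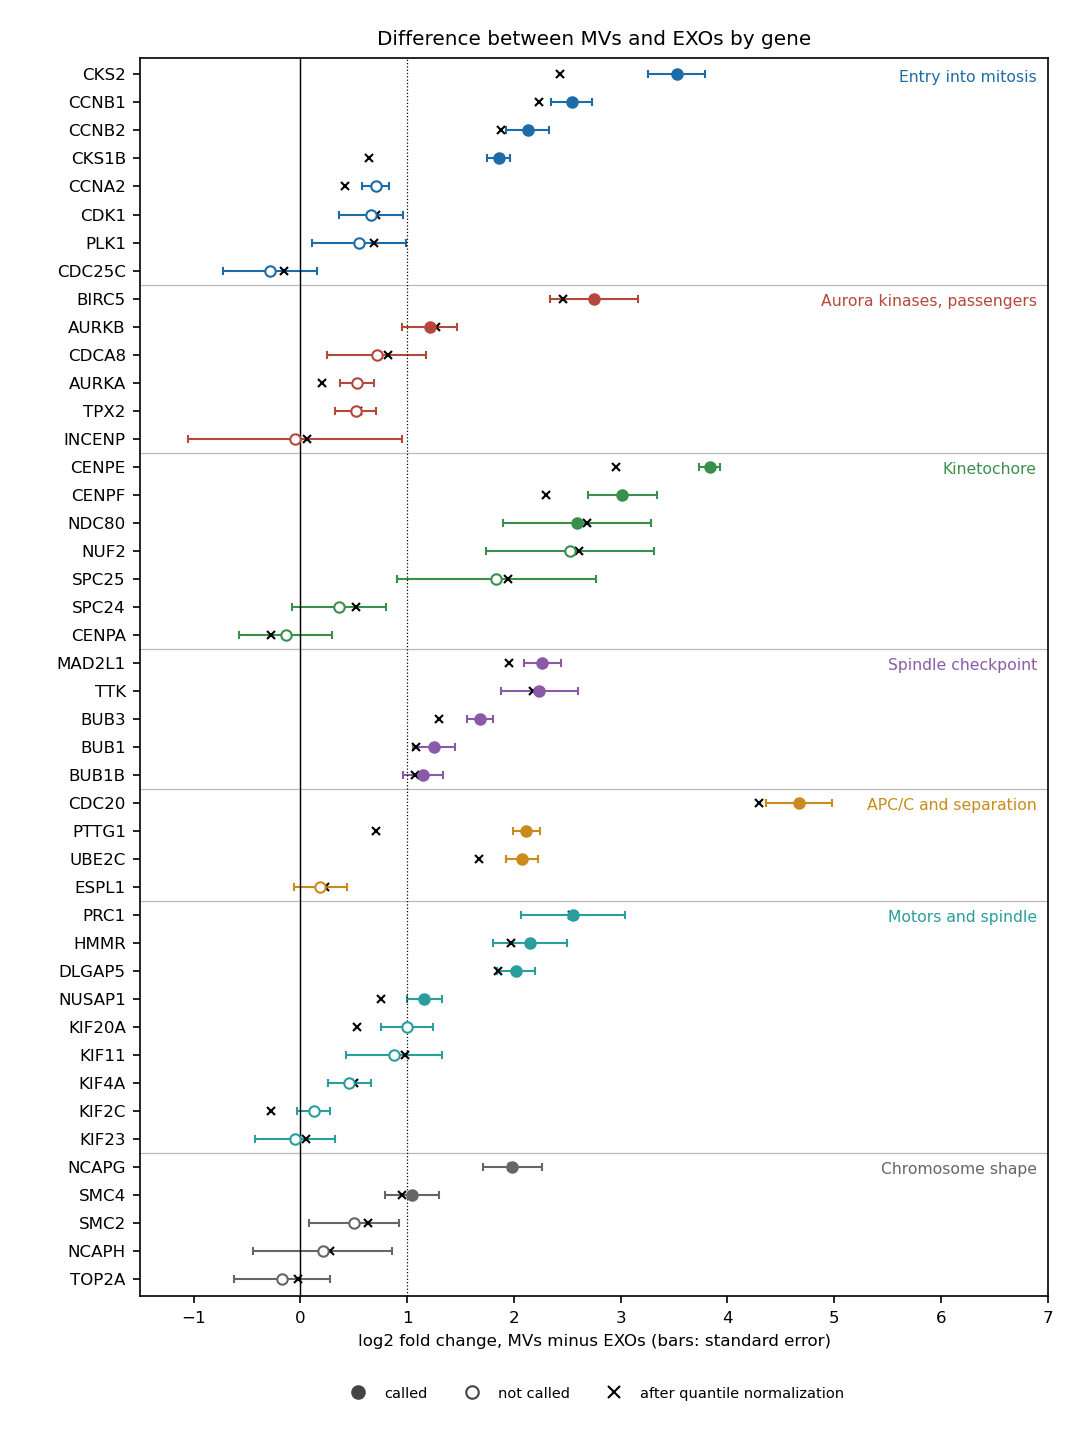
Log2 fold change, MVs minus EXOs, of each of the 44 genes with its standard error, grouped and coloured by role. Filled points are the 23 genes called, open points the others, crosses the value after quantile normalization, and the dotted line is 2-fold. CDC20 lies farthest right at 4.67, all 5 genes of the checkpoint group are filled, and the crosses of CKS1B and PTTG1 lie far left of their points.

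Motors and spindle proteins were split, with 4 of 9 higher in MVs and a median of 1.00. The called genes were microtubule binders without motor activity. PRC1, which bundles the midzone, had 1018, 1186 and 774 in MVs, against 90.9, 284 and 179 in EXOs (5.87-fold, 2.55 ± 0.48, adjusted p = 0.00716). HMMR (RHAMM), a hyaluronan receptor that also acts at spindle poles, had 2333, 1077 and 2530.0 in MVs, against 360.5, 551 and 365 in EXOs (4.44-fold, 2.15 ± 0.35, adjusted p = 0.00316). DLGAP5 (HURP), which stabilises kinetochore fibres, had 1724, 1802 and 2075 in MVs, against 421, 523 and 440.0 in EXOs (4.05-fold, 2.02 ± 0.18, adjusted p = 8.07e-05). The groups did not overlap for these 3 genes or for NUSAP1, which links microtubules to chromosomes and had 2430.0, 2394 and 2139 in MVs, against 1284, 875 and 992 in EXOs (2.24-fold, 1.16 ± 0.16, adjusted p = 0.00148). The call of NUSAP1 was lost after quantile normalization (0.76). That of HMMR was lost with all 9 arrays in the fit, on the same probe set (limma, adjusted p = 0.075).

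None of the 5 kinesins of this group was called. KIF20A, a kinesin of the midzone, came closest, with 2399, 2471 and 1940.1 in MVs, against 1391, 759 and 1370.5 in EXOs. Its adjusted p of 0.0224 passed and its log2 fold change of 0.997 was just under 2-fold. Without MVs replicate 3, EXOs replicate 1 or EXOs replicate 3 it was called, at 1.11 to 1.15. KIF11 (Eg5), which pushes the spindle poles apart, had 500.5, 417 and 321 in MVs, against 251, 267 and 162 in EXOs (0.88 ± 0.45, adjusted p = 0.206). KIF4A, a chromosome arm kinesin, had 896, 900.0 and 858 in MVs, against 549, 694 and 703 in EXOs (0.46 ± 0.20, adjusted p = 0.147). For KIF20A, KIF11 and KIF4A the MVs arrays were the higher ones throughout. KIF2C (MCAK), which takes microtubules apart at centromeres, had 1447, 1438 and 1513 in MVs, against 1159, 1627 and 1289 in EXOs (0.12 ± 0.16, adjusted p = 0.602). Its arrays overlapped, its EXOs arrays lay on either side of the background level, and its sign turned after quantile normalization (-0.28). KIF23 (MKLP1), the motor of the cleavage furrow, had 453, 613 and 705 in MVs, against 362, 681 and 882 in EXOs (-0.05 ± 0.38, adjusted p = 0.941).

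Of the 5 genes of chromosome shape 2 were higher in MVs, and the median was 0.50. NCAPG, a condensin I subunit, had 991, 1076 and 1340.2 in MVs, against 231, 329 and 303 in EXOs (3.96-fold, 1.98 ± 0.28, adjusted p = 0.00135). SMC4, an ATPase arm shared by both condensins, had 1713, 1339.8 and 1188 in MVs, against 683, 898 and 505 in EXOs (2.06-fold, 1.05 ± 0.25, adjusted p = 0.0209). That call was lost after quantile normalization (0.95) and without MVs replicate 1, MVs replicate 2, EXOs replicate 1 or EXOs replicate 3. SMC2, the other arm, had 323, 469.8 and 522 in MVs, against 337, 384 and 216 in EXOs (0.50 ± 0.42, adjusted p = 0.432). NCAPH, the kleisin of condensin I, had 71.2, 75.5 and 276 in MVs, against 130.3, 75.1 and 98.1 in EXOs (0.21 ± 0.65, adjusted p = 0.848). TOP2A, the topoisomerase that untangles sister DNA, had 583, 268 and 422 in MVs, against 714, 343 and 384 in EXOs (-0.17 ± 0.45, adjusted p = 0.817) on the probe set that stands for it. The arrays of SMC2, NCAPH and TOP2A overlapped and were under background.

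The MVs mean was above the MVs background level for 24 of the 44 genes, the EXOs mean above the EXOs level for 3 (CKS1B, PTTG1 and KIF2C), and the hESEVs mean above the hESEVs level for 6, while 18.9% of all genes were above it in MVs, 8.51% in EXOs and 12.1% in hESEVs. For 21 of the 23 called genes the EXOs mean lay under that level, so the size of those folds rests on dim signals.

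A gene was represented by its brightest probe set, and 22 of the 44 had more than 1. Over all 84 probe sets, tested with limma across all 54613 that are not controls, 30 were higher in MVs (35.7%, against 7.23% of all probe sets) and 0 were lower (against 1.97%). For 12 genes the probe sets fell on both sides of 0, and for 10 some were called and others not. CCNB1 and NCAPG had both of their probe sets called, at 2.54 and 2.03 for CCNB1 and at 1.98 and 1.37 for NCAPG. AURKB (1.21 and 3.49), NUSAP1 (1.16 and 2.68), CENPF (3.02 and 1.32) and BUB3 (1.68 and 1.98) also had a pair of called probe sets, beside an uncalled one of CENPF at -0.50 and 4 uncalled ones of BUB3 between 0.03 and 0.94.

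CDK1 and TOP2A were not called on their representing probe set but on another. Probe set 203213_at of CDK1 averaged 1682 ± 81.0 in MVs and 259 ± 95.8 in EXOs (SD, n = 3 each), a log2 fold change of 2.76 (limma, adjusted p = 0.000531), and its other 3 probe sets gave 0.66, 0.22 and -1.21. Probe set 201292_at of TOP2A averaged 672 ± 193 in MVs and 112 ± 76.2 in EXOs (SD, n = 3 each), a log2 fold change of 2.85 (limma, adjusted p = 0.0452), and its others gave 0.57 and -0.17. The reverse held for genes called on 1 of several probe sets. BIRC5 was at 2.75 on 202095_s_at and at 0.79, 0.29 and 0.10 on the rest, and MAD2L1 was at 2.27 on 203362_s_at and at 0.48 and -0.17 on the rest. CCNB2 was at 2.13 on 202705_at and at -0.62 and -1.23 on the rest, HMMR was at 2.15 on 207165_at and 0.76 on the other, SMC4 was at 1.05 on 201664_at and at 0.16 and -0.997 on the rest, and BUB1 was at 1.25 on 209642_at and at 0.22, -0.66, -0.77 and -1.48 on the rest. Which part of its transcript a probe set reads was not examined. NDC80, with a single probe set, missed the call when adjusted over probe sets (adjusted p = 0.06).

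**Figure D3:**
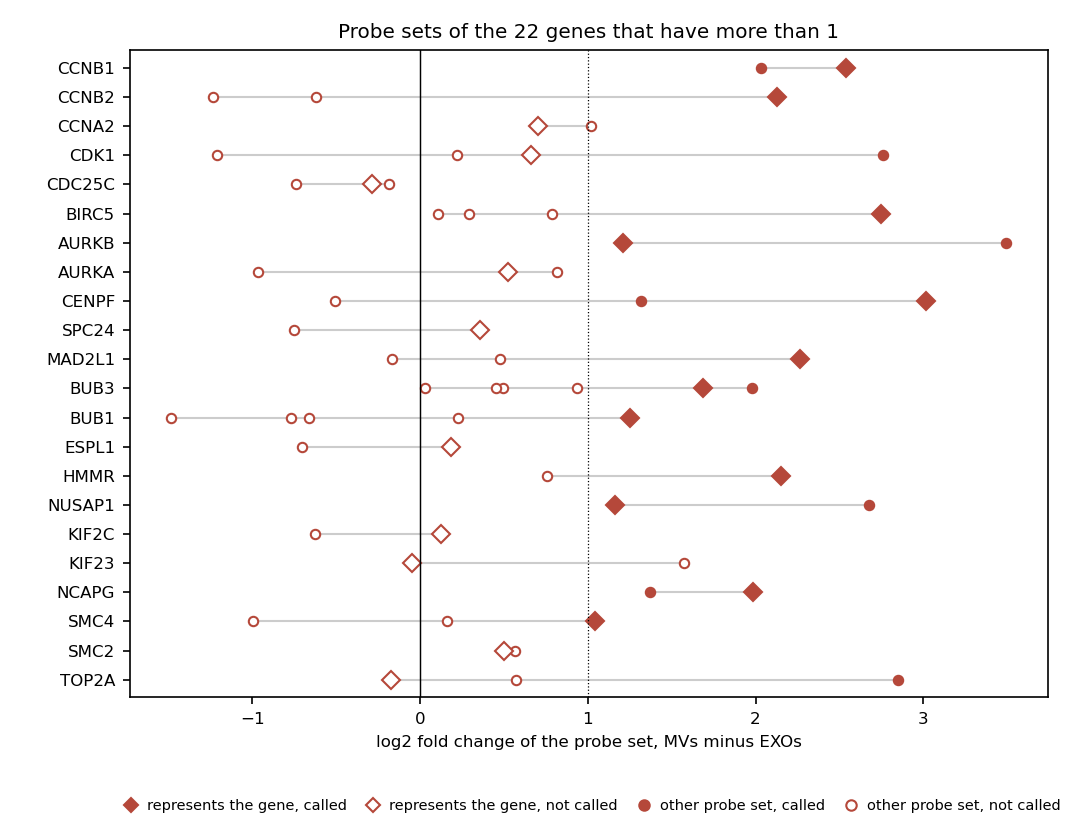
Log2 fold change, MVs minus EXOs, of every probe set of the 22 genes with more than 1, with a row per gene. Diamonds are the probe sets that represent a gene, circles the others, filled symbols are called, and the dotted line is 2-fold. No filled symbol lies left of 0, 12 rows cross 0, and the filled circles of CDK1 at 2.76 and TOP2A at 2.85 stand beside open diamonds.

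The ends of control RNAs were compared as well. For GAPDH the log2 excess of the 3′ over the 5′ signal averaged 1.53 in MVs and 0.67 in EXOs. For ACTB it averaged 4.57 in MVs and 2.61 in EXOs, so the excess was larger in MVs for both. On the control probe sets of GAPDH the log2 fold change, MVs minus EXOs, was 3.75 at the 3′ end and 2.89 at the 5′ end, and on those of ACTB it was 3.20 and 1.24. The gaps of 0.86 and 1.96 each had p = 0.1 in a two-sided exact permutation test, which cannot go lower with 3 arrays a group. By electrophoresis, the paper reports far longer RNAs in MVs, with mainly small RNAs in EXOs. The part of the ends or of RNA length in the differences of the mitosis genes was not tested.

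Of 80 further mitosis genes measured 29 were higher in MVs and 0 lower, with a median of 0.81, beside the 11.6% higher and 2.77% lower over all genes. After quantile normalization 28 were higher and 4 lower. Those higher in MVs included ANLN (anillin, a scaffold of the contractile ring, 4.69 ± 0.13), RACGAP1 (which helps to place the furrow, 2.51 ± 0.10) and CCNB1IP1 (a ubiquitin ligase that binds cyclin B, 3.15 ± 0.14). Of 51 DNA replication genes 22 were higher and 1 lower, with a median of 1.14, among them DUT (which removes dUTP, 2.52 ± 0.09), MCM6 (a helicase subunit, 3.01 ± 0.19) and PCNA (the polymerase clamp, 2.85 ± 0.18). Pluripotency genes were higher in 11 of 18 (median 1.56), or in 6 after quantile normalization, genes of differentiated derivatives were higher in 1 and lower in 3 of 27 (median -0.60), and tissue-restricted genes were higher in 3 and lower in 4 of 76 (median -0.52).

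The comparison with non-fractionated vesicles asked where the unsorted mixture lay. Of the 44 genes 17 were higher in MVs than in hESEVs and 0 lower, in a limma fit of all 9 arrays, with a median of 0.85. Over all genes 7.17% were called higher and 1.56% lower, with a median of -0.15. The split over all genes was 1417 higher and 308 lower, which became 489 and 338 after quantile normalization and 1778 and 135 when arrays were centred on their medians, with 10 and 19 mitosis genes called higher. It shares the MVs arrays with the comparison against EXOs.

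CENPE differed the most here, with the MVs signals given above against 1353, 896 and 1132 in hESEVs (8.85-fold, log2 fold change 3.15 ± 0.15, adjusted p = 3.97e-07). CENPF had 743, 1329 and 1099 in hESEVs (5.67-fold, 2.50 ± 0.32, adjusted p = 0.000303). CKS2 had 2520.1, 1716 and 2436 in hESEVs (5.48-fold, 2.46 ± 0.25, adjusted p = 6.15e-05), and was at 1.15 and not called after quantile normalization. For these 3 the lowest MVs array was above the highest hESEVs array. UBE2C, with 883, 842 and 541 in hESEVs, was 4.11-fold higher in MVs (2.04 ± 0.21, adjusted p = 4.71e-05). CDC20, with 576, 789.5 and 633 in hESEVs, was 4.02-fold higher (2.01 ± 0.29, adjusted p = 0.000698). The cyclins followed, with CCNB1 at 750.1, 806 and 628 in hESEVs (1.88 ± 0.20) and CCNB2 at 809, 855 and 629 (1.60 ± 0.21).

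NCAPG had 260.5, 422 and 271 in hESEVs (log2 fold change, MVs minus hESEVs, 1.86 ± 0.34, adjusted p = 0.00341), and SMC4 had 541, 658 and 540.4 (1.28 ± 0.25, adjusted p = 0.00548). CKS1B had 2461, 1671 and 1891 in hESEVs (1.60 ± 0.14) and PTTG1 had 3401, 2931 and 2527 (1.41 ± 0.14), and after quantile normalization neither was called, at 0.51 and 0.17. Of the checkpoint genes BUB1 had 790.3, 635 and 493 in hESEVs (1.44 ± 0.23), MAD2L1 had 943, 1004 and 1009.7 (1.42 ± 0.17) and BUB3 had 1181, 1228 and 939 (1.27 ± 0.14). MAD2L1 and BUB3 were at 0.93 and 0.74 after quantile normalization, under 2-fold. DLGAP5 had 893, 674 and 688 in hESEVs (1.32 ± 0.19, adjusted p = 0.000834). The calls of PRC1 and BIRC5 were the weakest. PRC1 had 409.6, 285 and 117 in hESEVs (2.03 ± 0.58, adjusted p = 0.04) and lost its call without 5 of the 9 arrays in turn, at 1.52 without hESEVs replicate 3 (adjusted p = 0.118). BIRC5 had 1242, 858 and 836 in hESEVs (1.26 ± 0.38, adjusted p = 0.0489) and lost it without 6 of the 9, at 1.06 without MVs replicate 2 (adjusted p = 0.165).

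EXOs were lower than hESEVs for 3 of the 44 genes and higher for 0, in the same fit and against the same hESEVs arrays, with a median of -0.37. Over all genes 3.28% were called lower in EXOs and 0.172% higher. These counts were 648 lower and 34 higher, which became 637 and 167 after quantile normalization. CDC20 was lower in EXOs by the most, with 119, 75.4 and 126 in EXOs against 576, 789.5 and 633 in hESEVs (log2 fold change, EXOs minus hESEVs, -2.66 ± 0.29, adjusted p = 0.00015), and it kept its call without each array in turn. BIRC5 (-1.48 ± 0.38, adjusted p = 0.0499) and CKS2 (-1.07 ± 0.25, adjusted p = 0.035) were called only just. BIRC5 lost its call without 8 of the 9 arrays in turn, the exception being EXOs replicate 2, and CKS2 without 6 of the 9, so that 1 or 2 genes were left in each such fit.

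For the 23 genes called higher in MVs than in EXOs, the hESEVs mean lay closer to EXOs than to MVs each time. On the linear scale, with the EXOs mean at 0% and the MVs mean at 100%, the median place of hESEVs was 13.2%, against 22.0% for all 2293 genes called higher in MVs, whose quartiles were 12.8% and 32.8%. By those quartiles most of the 2293 genes also lay closer to EXOs. The median place of the called mitosis genes depended on the scaling. It was 19.3% after quantile normalization and 11.3% with centred arrays, with no value for all genes beside these. SMC4 (-16.1%) and BUB1 (-9.22%) were placed beyond EXOs, although neither was called between EXOs and hESEVs and both had means under background in these pellets, UBE2C (1.20%), NCAPG (3.58%), HMMR (4.35%), CENPE (4.77%) and CENPF (5.49%) were next to EXOs, and TTK (27.9%), BIRC5 (29.8%) and BUB1B (35.1%) were farthest toward MVs. The places share the MVs and EXOs arrays that chose the genes, and were not tested. The mitochondrially encoded RNAs of the same pellets lay elsewhere, since their summed signal in hESEVs, given above, exceeded that in MVs, and none of the 7 differed between MVs and hESEVs by the call used here.

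**Figure D4:**
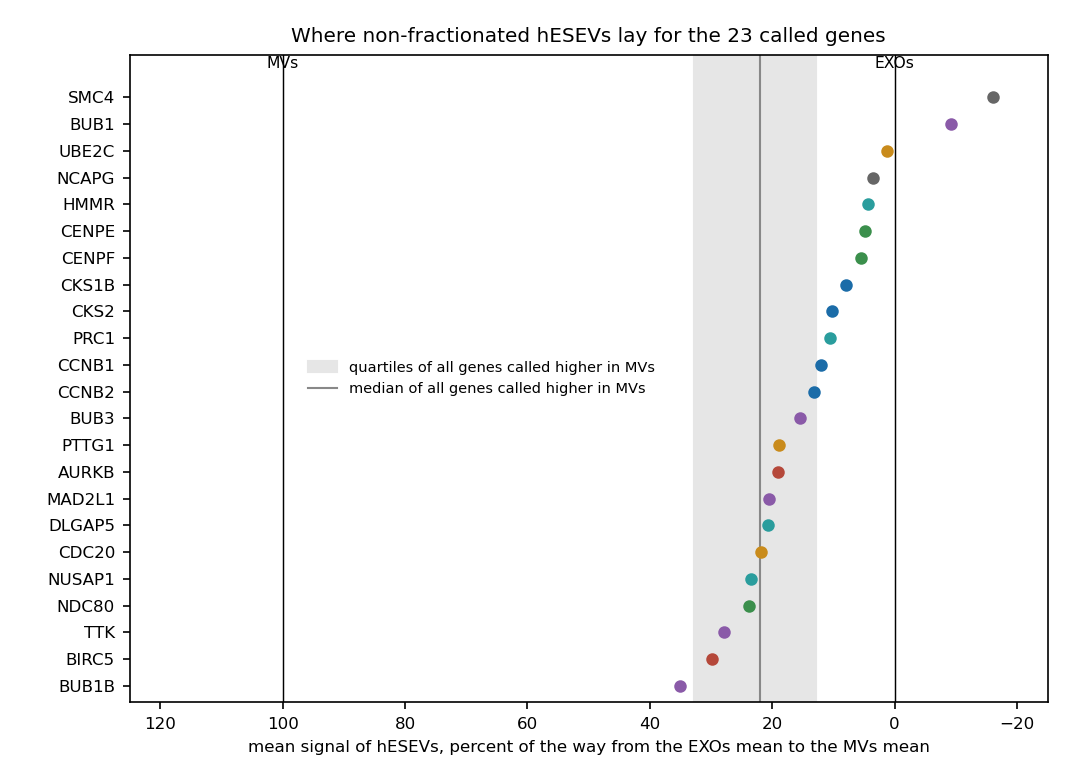
Place of the hESEVs mean between the MVs mean (100, left) and the EXOs mean (0, right) on the linear signal scale, for the 23 genes called higher in MVs than in EXOs, coloured by role as in the plot of fold changes. The grey band runs between the quartiles of all 2293 genes called higher in MVs and the grey line their median of 22.0%. All 23 points lie nearer to EXOs than to MVs, between -16.1% and 35.1%.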

How the data were processed

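Total RNA of 3 MVs, 3 EXOs and 3 hESEVs samples was hybridised to Affymetrix HG-U133 Plus 2.0 arrays. The authors summarised the scans with MAS5, version not given in the sources used here, as a linear intensity per probe set scaled to a target of 500, and these deposited intensities were used. The RMA normalization that the methods name for the comparison starts from probe intensities and was not used here. For hESEVs the paper gives other spins than the labels, whose protocol was followed here, and sample descriptions of MVs name another first clearing spin.

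Signals under 32 were raised to 32 and log2 was taken. Of 54675 probe sets, 62 controls were left out, and the array annotation gave 1 gene for 41091, several for 1801 and none for 11721. A probe set paired with several genes, which was the case for 1 of a mitosis gene (CENPA), was not used. A gene, of which there were 19775, took the values of its brightest probe set by mean log2 signal in the arrays fitted, so that HMMR is represented by another probe set in the fit of 9 arrays. No symbol had to be updated against RefSeq. Two-sided tests came from limma 3.58.1 under R 4.3.3, using lmFit followed by eBayes with trended variance, in a fit of the 6 arrays of MVs and EXOs and another of all 9 for both comparisons with hESEVs. Calls needed a difference of 2-fold or more and an adjusted p (Benjamini-Hochberg) under 0.05. Tested on simulated data of the 19775 genes with 200 changed between MVs and EXOs, the fit called 70% of those changed by 3 and 28% of those changed by 1.5 on the log2 scale, and 2 unchanged genes. With 3 arrays per group the precision is limited by their number. The adjusted p-values set a difference against the spread between these samples and do not measure that spread.

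The mitosis genes and all lists were chosen with earlier results of these arrays known. All 44 are named for MVs minus EXOs, those called for the comparisons with hESEVs, and of each other list up to 3 called genes of smallest p. Checkpoint genes among the further mitosis genes are named in addition. Alternatives were quantile normalization, centring on medians, floors of 1 and 100, a filter on dim genes, averaging or restricting probe sets, no trend, the replicate number as a block, leaving out each array, the methods' t-test with and without Benjamini-Hochberg adjustment, no adjustment, and other arrays in the fit. Alternatives other than those on probe sets kept the probe set that represents each gene. Figures were drawn with matplotlib 3.10.9 in Python 3.11.15.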

Additional observations from a re-analysis of the deposited data

How the results depend on the processing

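The count of mitosis genes higher in MVs than in EXOs stayed between 15 and 25 under every alternative run, with 0 lower. It was 15 without shared probe sets, a setting that also gave 1304 genes higher in all, 17 further mitosis genes and 12 DNA replication genes. In that setting the called genes CKS1B, CKS2, CDC20, PTTG1 and PRC1 had no probe set left, nor had CDCA8, TPX2 and CENPA. These genes could not be counted there in any comparison, so part of the fall is genes not measured. It was 22 with the replicate number as a block, which cost NDC80 its call (adjusted p = 0.0545) and, in EXOs minus hESEVs, BIRC5 (adjusted p = 0.0504) and in MVs minus hESEVs PRC1 (adjusted p = 0.0502), and left 22 genes higher in EXOs. Same-numbered deviations correlated between -0.02 and 0.00, so no effect shared by replicate number was seen. That cannot show that the samples were unpaired, and the main fits used no pairing. The count was 18 with the methods' t-test after Benjamini-Hochberg adjustment (24 without), which dropped BIRC5, NDC80, PRC1, HMMR and SMC4 and called 12 DNA replication genes.

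For MVs minus EXOs the genes lower in all were 1150 after quantile normalization, 291 with centred arrays, 899 and 232 with the methods' t-test before and after adjustment, and 1280 with limma unadjusted. The median of the mitosis genes was 0.96 after quantile normalization and 1.33 with centred arrays. It was 0.96 with probe sets averaged and 0.94 without shared probe sets. Over genes above the median signal it was 1.68, for the 31 mitosis genes that this filter kept. These were selected by their signal on the same arrays, and no median over all genes kept stands beside it. The 1.68 therefore cannot be compared with the medians of the other settings. For MVs minus hESEVs the genes higher in all were 489 after quantile normalization, 895 with probe sets averaged and 722 without shared probe sets, with 10 and 9 mitosis genes for the first and last, and the genes lower were 135 with centred arrays, 566 and 139 with the t-test and 926 unadjusted. For EXOs minus hESEVs the genes higher were 167 after quantile normalization, 13 above the median signal, 17 without shared probe sets, 181 and 4 with the t-test, 342 unadjusted and 14 on 6 arrays. The genes lower were 272, 208 and 1113 without shared probe sets, with the adjusted t-test and unadjusted. The 3 mitosis genes lower in EXOs became 1 with a floor of 100, no trend, the adjusted t-test or 6 arrays. They became 0 without shared probe sets, where CDC20 and CKS2 had no probe set left. The median place of hESEVs was 19.3% after quantile normalization. Causes were not tested.

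Signs turned, in MVs minus EXOs, for INCENP (0.057), KIF23 (0.048) and KIF2C (-0.28) after quantile normalization, and for INCENP (0.087) and KIF23 (0.090) with centred arrays. With probe sets averaged they turned for SPC24 (-0.19), BUB1 (-0.29), ESPL1 (-0.26), KIF23 (0.76), KIF2C (-0.25) and TOP2A (1.08), and without shared probe sets for AURKA (-0.96), CENPF (-0.50) and MAD2L1 (-0.17). In MVs minus hESEVs BUB1 was at -0.42 with probe sets averaged, and BUB3 at -0.10 and MAD2L1 at -0.43 without shared probe sets, where BIRC5 in EXOs minus hESEVs was at 0.22.

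Leaving out each array in turn gave 20 to 23 mitosis genes higher in MVs than in EXOs, 15 to 17 higher in MVs than in hESEVs and 1 to 2 lower in EXOs than in hESEVs. Over all genes it gave 311 to 467 lower in MVs than in EXOs, 173 to 349 lower in MVs than in hESEVs and 18 to 39 higher in EXOs than in hESEVs. The median of the mitosis genes, MVs minus EXOs, ran between 1.13 and 1.29. The sign of single uncalled genes turned for INCENP (-1.11 to 0.54), KIF23 (-0.42 to 0.23), CDC25C (-0.61 to 0.093), TOP2A (-0.44 to 0.15), NCAPH (-0.43 to 0.55) and CENPA (-0.65 to 0.32). Many genes lay near or under the background level, which limits the precision of their differences.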
